A study of Rattus norvegicus with 9 samples.

Results

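A set of 10 neutrophil genes, out of 17465 genes in the deposited table, was followed across 9 fetal rat lungs. They were S100a8 and S100a9, which encode the subunits of calprotectin, and 8 genes of granule proteins, Olfm4, Ltf, Camp, Ngp, Lcn2, Mmp8, Mmp9 and Mpo. Members were named by rat symbol and joined to the table by NCBI Gene ID, and all 10 symbols matched. Of these, 9 passed the filter on low counts and Ltf did not.

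The lungs came from Sprague-Dawley rats and formed 3 groups of 3 libraries of ribosome-depleted total RNA. Control lungs were normal fetal lungs without treatment. Untreated hypoplastic lungs were underdeveloped lungs, which the title of the study ascribes to oligohydramnios, a lack of amniotic fluid. Treated lungs were hypoplastic lungs given AFSC-EVs, extracellular vesicles shed by amniotic fluid stem cells. Both hypoplastic groups thus share the oligohydramnios and differ by the vesicles. The Y-linked gene Ddx3y was read in control libraries 1 and 2, hypoplastic library 3 and treated library 3. It was at or near 0 in the other lungs, so the mix of sexes differed between control and the other groups. No source used here gives the fetal age, the dose or route of the vesicles, the litter, or whether a library is 1 animal or a pool, so p-values measure the spread between libraries, which may be technical.

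Neutrophils pack antimicrobial proteins into granules that form in sequence as the cell matures. Azurophil granules, marked by myeloperoxidase, come first, specific granules with lactoferrin and cathelicidin follow, gelatinase granules form last, and calprotectin fills the cytosol. Some of these genes are also read outside neutrophils. For example, Lcn2, Mmp9 and Olfm4 can be made by epithelium, and Lcn2 and Mmp9 also by macrophages under inflammatory stimulation. These examples are not a full list of sources. In these bulk samples a larger number of neutrophils, more transcript per cell and transcript from other cells cannot be told apart.

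All 9 members above the filter had their highest mean in untreated hypoplastic lungs, an intermediate mean in treated lungs and their lowest mean in control lungs. They followed 2 courses within the hypoplastic group. S100a8, S100a9, Olfm4, Camp, Ngp and Mmp8 were lower in hypoplastic library 2 than in hypoplastic libraries 1 and 3. Lcn2, Mmp9 and Mpo were highest in hypoplastic library 2. The genes were selected on their measured levels and differences between these same groups of lungs, so what follows is a description of them. Hypoplastic libraries 1 and 2 stood apart from the other lungs by transcripts of heart muscle and, in library 1, of basal epithelium, and differences are given below also without them.

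S100a8 and S100a9 encode small calcium-binding proteins that pair as calprotectin, a protein that withholds zinc and manganese from microbes and acts as an inflammatory signal. Levels are in CPM, estimated counts scaled to the TMM library size, which is the library total corrected for composition. S100a8 (Gene ID 116547) was at 4.49, 4.56 and 2.71 CPM in control libraries 1 to 3. It was at 39.0, 19.8 and 31.1 CPM in hypoplastic libraries and at 20.1, 7.81 and 30.1 CPM in treated libraries. Every hypoplastic and every treated lung lay above every control lung, and treated lungs overlapped hypoplastic lungs. The group means were 3.92 CPM ± 1.05 (SD, n = 3), 30.0 CPM ± 9.66 (SD, n = 3) and 19.3 CPM ± 11.2 (SD, n = 3). The fitted log2 difference of hypoplastic from control lungs was 2.94 (SE 0.471), or 7.67-fold.

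S100a9 (Gene ID 94195) was at 3.96, 2.96 and 2.06 CPM in control, 36.1, 21.6 and 31.9 CPM in hypoplastic and 17.8, 6.94 and 35.8 CPM in treated libraries. Treated library 3 was close to the highest hypoplastic lung, while treated library 2 was 2.32 times the control mean. The log2 difference of hypoplastic from control lungs was 3.32 (SE 0.540), or 10-fold. S100a8 and S100a9 lie next to each other on rat chromosome 2 with no protein-coding gene between them in RefSeq. The ratio of S100a9 to S100a8 counts stayed between 0.649 and 1.19 over the 9 libraries, a spread of 1.83-fold, while S100a8 itself spanned 14.4-fold. The ratio was 0.882, 0.649 and 0.760 in control libraries, and 0.884 and 0.888 in treated libraries 1 and 2. Control library 1 thus lay level with those treated lungs. This ratio is not scaled for transcript length and is compared only between libraries.

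Specific granule genes made up 6 of the 10 members. Olfm4 (Gene ID 290409) encodes olfactomedin 4, a glycoprotein carried by a subset of neutrophils. It was at 5.49, 3.89 and 4.11 CPM in control, 40.5, 23.9 and 29.9 CPM in hypoplastic and 22.1, 9.42 and 27.4 CPM in treated libraries. As for calprotectin, no control lung reached any other lung, and treated library 2 was the lowest lung outside the control group. Its log2 difference between hypoplastic and control lungs was 2.80 (SE 0.376), or 6.99-fold. The ratio of Olfm4 to S100a8 counts ran from 0.853 to 1.51.

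Camp (Gene ID 316010) encodes the cathelicidin antimicrobial peptide precursor. It stood at 1.41, 1.61 and 0.719 CPM in control, 11.5, 3.56 and 10.1 CPM in hypoplastic and 5.70, 1.85 and 5.14 CPM in treated libraries. The control lungs again lay below all others, and hypoplastic library 2 was below the treated libraries 1 and 3. Its log2 difference was 2.77 (SE 0.557), or 6.82-fold.

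Ngp (Gene ID 301026) encodes neutrophilic granule protein, a cathelicidin relative. Its levels were 2.51, 3.64 and 0.990 CPM in control, 7.48, 2.01 and 8.13 CPM in hypoplastic and 3.74, 1.48 and 4.74 CPM in treated libraries. All 3 groups overlapped, with hypoplastic library 2 below control libraries 1 and 2. The log2 difference of hypoplastic from control lungs was 1.32 (SE 0.615), the smallest among the 9 members, and 1.73 without hypoplastic library 2. Ngp did not keep a fixed ratio to Camp. The ratio of Ngp to Camp counts was 1.81 ± 0.446 (SD, n = 3) in control, 0.673 ± 0.122 (SD, n = 3) in hypoplastic and 0.793 ± 0.133 (SD, n = 3) in treated lungs, with no overlap between control and the other lungs.

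Mmp8 (Gene ID 63849), neutrophil collagenase, was at 1.36, 0.785 and 0.534 CPM in control, 3.80, 2.43 and 4.69 CPM in hypoplastic and 2.55, 0.801 and 4.06 CPM in treated libraries. Hypoplastic lungs lay above control lungs, and treated library 2 fell within the control range. Its log2 difference between hypoplastic and control lungs was 2.03 (SE 0.569), or 4.08-fold.

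Ltf (Gene ID 301034) encodes lactoferrin, the iron-binding protein that defines specific granules. It was at or near 0 in every lung, with 0, 2 and 2 counts in control, 5, 2 and 1 in hypoplastic and 2, 0 and 0 in treated libraries. A count of 0 allows up to 3 counts, which is 0.034 to 0.0527 CPM of the library totals, and no fold is given. These limits cover counting error only. A difference in Ltf was therefore not detectable at this depth.

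To show the DNA upstream of a calprotectin gene and of the related pair Camp and Ngp, which did not keep a fixed ratio, the 250 bases before the start of S100a9, Camp and Ngp are given from RefSeq (GRCr8), 5′ to 3′ on the gene's strand. Of the 10 members 8 had an entry, and S100a8 and Mmp9 had none. Capitals mark matches on either strand to the letters searched, TATAAA (a core promoter element), TTGCNNAA (C/EBP factors), GAGGAA (PU.1 and other ETS factors) and TTCNNNGAA (STAT factors), and to an NF-kB motif.
S100a9, GRCr8 chr2:178490623-178490872, strand -: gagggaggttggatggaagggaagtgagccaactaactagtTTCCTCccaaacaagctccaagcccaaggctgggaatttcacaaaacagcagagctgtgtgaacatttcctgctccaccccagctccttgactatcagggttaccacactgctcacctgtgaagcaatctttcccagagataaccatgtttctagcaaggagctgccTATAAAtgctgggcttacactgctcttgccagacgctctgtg
Camp, GRCr8 chr8:118721999-118722248, strand -: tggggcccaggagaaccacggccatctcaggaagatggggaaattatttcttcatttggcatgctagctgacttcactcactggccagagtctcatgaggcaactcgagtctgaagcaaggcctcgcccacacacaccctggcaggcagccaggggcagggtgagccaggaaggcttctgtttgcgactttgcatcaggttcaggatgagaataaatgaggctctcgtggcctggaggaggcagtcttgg
Ngp, GRCr8 chr8:119272355-119272604, strand +: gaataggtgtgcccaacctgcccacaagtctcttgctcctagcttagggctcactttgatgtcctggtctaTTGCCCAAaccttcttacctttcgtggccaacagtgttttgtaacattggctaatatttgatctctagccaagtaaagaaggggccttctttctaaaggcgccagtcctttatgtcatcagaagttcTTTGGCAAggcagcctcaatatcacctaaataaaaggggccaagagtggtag
Positions count back from the gene's start. In the S100a9 window TATAAA begins at -42, and the reverse complement of GAGGAA begins at -209. The Ngp window holds 2 matches to TTGCNNAA, beginning at -179 on the gene's strand and at -52 on the opposite strand, and the Camp window holds none of the 5 motifs. TTGCNNAA was found in 3 of the 8 members (Lcn2, Mmp8 and Ngp), against 9.22% of 33469 RefSeq promoters of this length. GAGGAA was found in 3 of 8 (Mpo, Olfm4 and S100a9) against 23.3%, and TATAAA in 2 of 8 (Mmp8 and S100a9) against 12.9%. TTCNNNGAA was found in 1 of 8 (Mmp8) against 7.67%, and the NF-kB motif as searched in 0 of 8 against 1.3%. Only a restricted form of the NF-kB motif was searched, so its absence does not show that the windows lack other forms. No 2 of these matches overlapped within the 3 windows, and a match is a run of letters and not a measured binding site.

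Lcn2, Mmp9 and Mpo had their extreme values in hypoplastic library 2. Lcn2 (Gene ID 170496) encodes lipocalin 2, which binds bacterial iron carriers. It was at 13.8, 10.5 and 11.7 CPM in control, 33.1, 131.2 and 21.3 CPM in hypoplastic and 20.2, 26.4 and 20.5 CPM in treated libraries. All control lungs were below all others, and hypoplastic library 2 was 3.97 times the next highest lung. The log2 difference of hypoplastic from control lungs was 2.37 (SE 0.569), and 1.18 without hypoplastic library 2. The ratio of Lcn2 to S100a8 counts was 6.62 in that library against 0.847 and 0.685 in the other hypoplastic libraries. In control libraries this ratio was 3.08, 2.30 and 4.29.

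Mmp9 (Gene ID 81687), gelatinase B of the gelatinase granules, was at 1.23, 0.392 and 1.61 CPM in control, 3.75, 19.1 and 3.84 CPM in hypoplastic and 2.78, 0.933 and 4.45 CPM in treated libraries. Hypoplastic lungs were above control lungs, while treated library 2 lay inside the control range. Its log2 difference was 3.01 (SE 0.809), and 1.77 without hypoplastic library 2.

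Mpo (Gene ID 303413) encodes myeloperoxidase, the enzyme of azurophil granules that makes hypochlorous acid. It was at 0.322, 0.143 and 0.122 CPM in control, 1.11, 5.21 and 0.634 CPM in hypoplastic and 0.606, 0.694 and 2.95 CPM in treated libraries. Control lungs lay below all others at 8 to 21 counts per library, and treated library 3 was the second highest lung. The log2 difference of hypoplastic from control lungs was 3.56 (SE 1.06), and 2.17 without hypoplastic library 2.

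**Figure D1:**
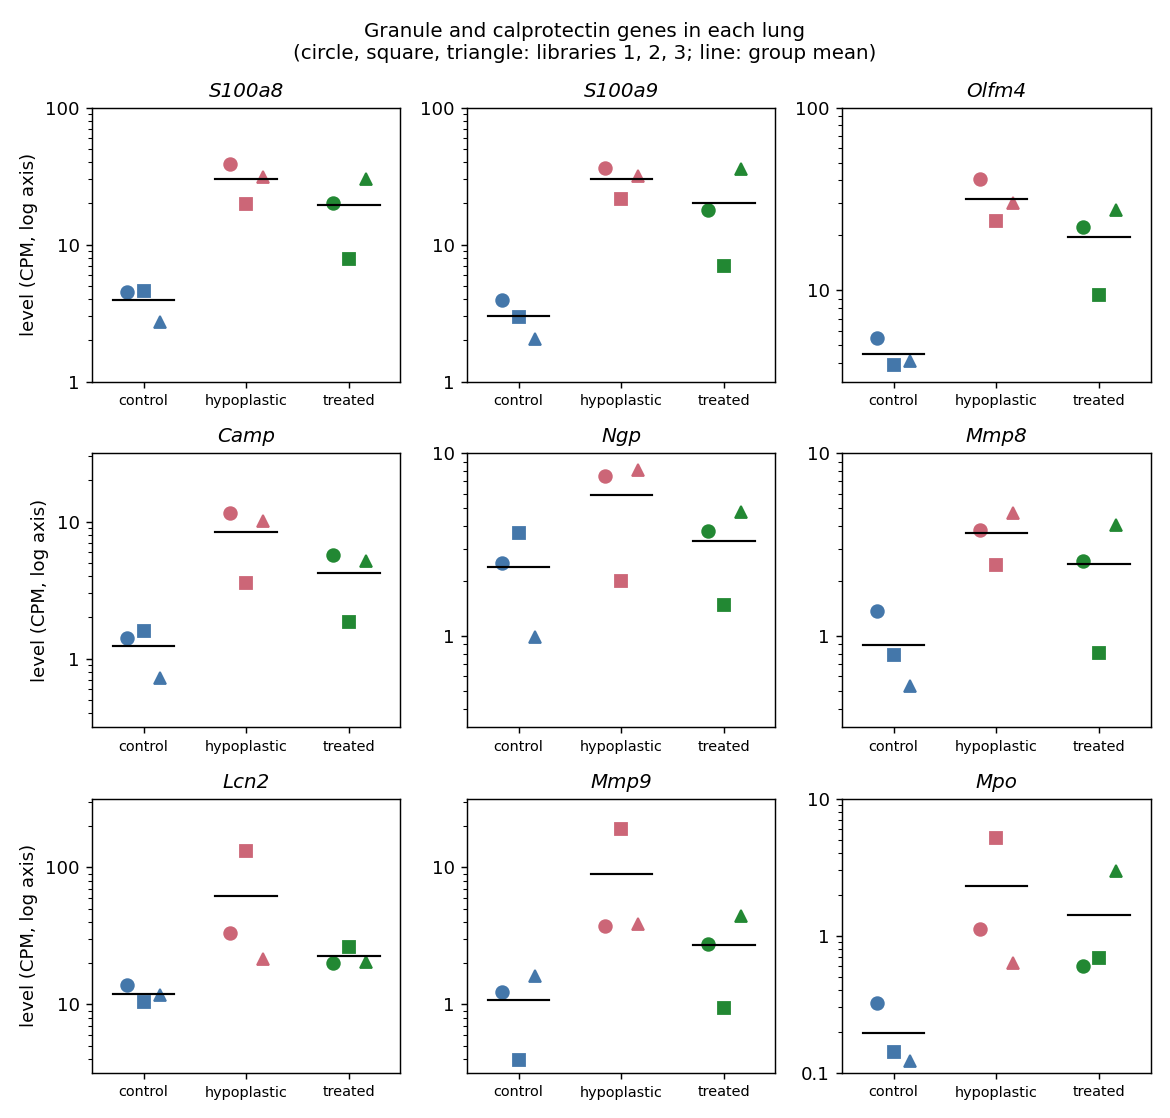
Levels of 9 members in each library, in CPM on a log axis, with a line at each group mean; Ltf is left out because it is near 0. S100a8, S100a9 and Olfm4 separate all control lungs from all others, and hypoplastic library 2 (square) is the highest lung for Lcn2 (131.2 CPM), Mmp9 (19.1 CPM) and Mpo (5.21 CPM).

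The first comparison set hypoplastic lungs against control lungs, which differ by the oligohydramnios and also in the mix of sexes. Over the 12966 genes tested, edgeR's quasi-likelihood test called 0.00771% at an adjusted p under 0.05, and 0 of the 9 members. At an unadjusted p under 0.05 edgeR had 8 of the 9 members, the exception being Ngp, against 12.4% of all genes. All hypoplastic libraries lay above all control libraries for 8 of 9 members and for 7.67% of all genes. The fitted difference was above 0 for 9 of 9 members and for 51.9% of all genes. The median log2 difference of the 9 members was 2.80, against 0.013 over all genes tested. Limma voom called 0 members and 0.00771% of all genes, and DESeq2 called 8 members and 1.48% of all genes. With only these 6 libraries in the fit, edgeR called Olfm4 and S100a9 and 0.0313% of all genes, and without hypoplastic library 3 it called Olfm4 among 45 of 13168 genes. Nothing is read from these counts, because the members were chosen with this comparison known.

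The second comparison set treated against untreated hypoplastic lungs, which differ by the vesicles. All 9 members had a fitted difference below 0, where 48.1% of all genes were above 0, but the libraries of the groups overlapped for each of them. edgeR and limma voom each called 0 of 9 members and 0% of all genes, and DESeq2 called 0 members and 0.114% of all genes. At an unadjusted p under 0.05 edgeR had 2 members, Lcn2 and Mmp9, against 5.56% of all genes. Complete separation with treated lungs lower held for 0 of 9 members and for 4.74% of all genes. The median log2 difference was -0.74, against -0.010 over all genes tested.

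The lower treated means rested on different lungs for the different members. The log2 difference of S100a8 was -0.63 (SE 0.430) and became -0.256 without treated library 2. For S100a9 it was -0.57 (SE 0.481) and -0.157 without that library, and for Mmp8 -0.57 (SE 0.512) and -0.139. Olfm4 was at -0.68 (SE 0.347) and Camp at -0.99 (SE 0.499), which became -0.344 and -0.627 without it. The Ngp difference was -0.83 (SE 0.595) and -0.467 without treated library 2. For Lcn2, -1.47 (SE 0.550) became -0.282 without hypoplastic library 2, and for Mmp9, -1.72 (SE 0.739) became -0.493. The Mpo difference of -0.74 (SE 0.793) turned to 0.652 without hypoplastic library 2. Leaving out treated library 3 instead moved the values away from 0, to -1.10 for S100a8, -1.27 for S100a9, -1.12 for Mmp8 and -1.83 for Mpo.

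Treated library 2 was the lowest treated lung for 7 of the 9 members, the exceptions being Lcn2, for which it was the highest, and Mpo. For S100a8, treated libraries 1 and 3 averaged 3.21 times treated library 2, for S100a9 3.86 times and for Mmp8 4.13 times. The spread within a group, highest over lowest lung, was wider in treated than in hypoplastic lungs for S100a8 (3.85-fold and 1.97-fold), S100a9 (5.15-fold and 1.67-fold), Olfm4 (2.91-fold and 1.69-fold) and Mmp8 (5.07-fold and 1.93-fold). It was wider in hypoplastic lungs for the other 5 members, from Camp (3.23-fold against 3.07-fold in treated lungs) to Lcn2 (6.15-fold against 1.31-fold).

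The third comparison set treated lungs against control lungs. Its fitted difference was above 0 for 9 of 9 members and for 50.6% of all genes. These comparisons share libraries, so their values are given side by side and not as separate evidence. Every treated lung was above every control lung for 6 of the 9 members (S100a8, S100a9, Olfm4, Camp, Lcn2 and Mpo), as for 4.37% of all genes. The log2 differences were 2.75 (SE 0.530) for S100a9, 2.82 (SE 1.09) for Mpo, 2.30 (SE 0.462) for S100a8, 2.12 (SE 0.369) for Olfm4, 1.78 (SE 0.556) for Camp and 0.90 (SE 0.550) for Lcn2. Without treated library 3 these became 2.05 for S100a9 and 1.73 for Mpo. Mmp8, Mmp9 and Ngp overlapped between these groups, with log2 differences of 1.46 (SE 0.573), 1.28 (SE 0.816) and 0.49 (SE 0.619). edgeR called 0 of 9 members and 0% of all genes, and 6 of 9 members had an unadjusted p under 0.05 against 4.17% of all genes. DESeq2 called Olfm4, S100a8 and S100a9, with 0.119% of all genes called, and limma voom called 0 members and 0% of all genes.

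**Figure D2:**
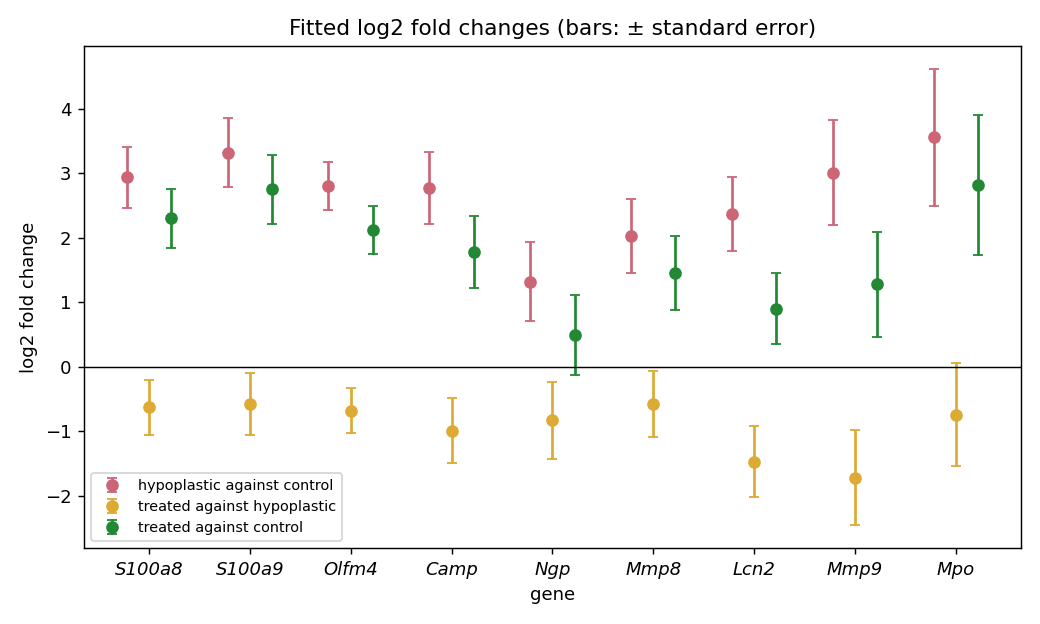
Fitted log2 fold changes of 9 members in the 3 comparisons, with bars of 1 standard error either side. Hypoplastic and treated lungs are above control for every member, from 1.32 for Ngp to 3.56 for Mpo in hypoplastic lungs, and the differences between treated and hypoplastic lungs lie between -1.72 and -0.57.

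Other genes with the course of calprotectin were found over the 9 libraries. Each of 11390 genes with a mean of at least 1 CPM was set against the mean of S100a8 and S100a9 by the root mean square difference of centred log2(CPM + 0.5), where a small value is a close match and the median gene was at 1.38. The 8 closest were Olfm4 (0.254), Np4 (0.428), Camp (0.483), Defa5 (0.538), Stfa3 (0.589), RatNP-3b (0.625), Mmp8 (0.633) and Tf (0.651). Olfm4, Camp and Mmp8 among them were members. Np4, Defa5 and RatNP-3b are defensin genes, and rat neutrophil defensins are stored in azurophil granules. These defensin genes are close copies, so reads may have been divided among them and each single value is uncertain. Np4 (Gene ID 286958) was at 0.538, 0.945 and 0.231 CPM in control, 10.6, 3.07 and 3.75 CPM in hypoplastic and 3.42, 1.52 and 4.57 CPM in treated libraries. Stfa3, a stefin A protease inhibitor, was at 0.461 to 0.811 CPM in control, 1.89 to 4.64 CPM in hypoplastic and 0.957 to 3.42 CPM in treated libraries. Tf, which encodes the iron carrier transferrin, was at 20.6 to 27.0 CPM in control, 72.4 to 99.5 CPM in hypoplastic and 29.5 to 60.4 CPM in treated libraries. The member genes Ngp, Mpo, Mmp9 and Lcn2 followed less closely, at ranks 20, 31, 39 and 197.

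**Figure D3:**
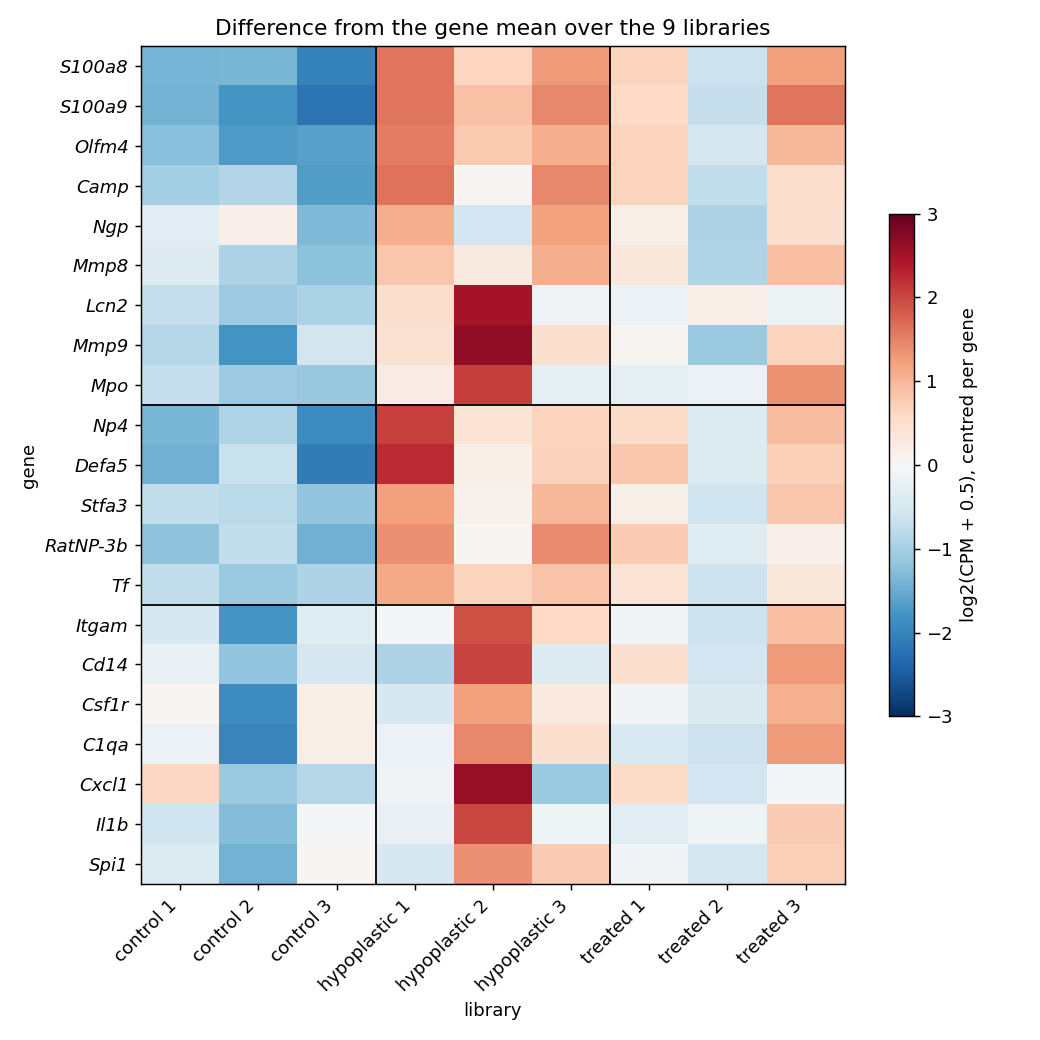
Each cell is the log2(CPM + 0.5) of a gene in a library minus the mean of that gene over the 9 libraries, for 9 members (top), the 5 other genes closest to calprotectin (middle) and 7 myeloid and inflammatory genes picked after their values were seen (bottom). Np4 and Camp are highest in hypoplastic library 1, whereas Lcn2, Mmp9, Itgam and Cxcl1 are highest in hypoplastic library 2.

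**Figure D4:**
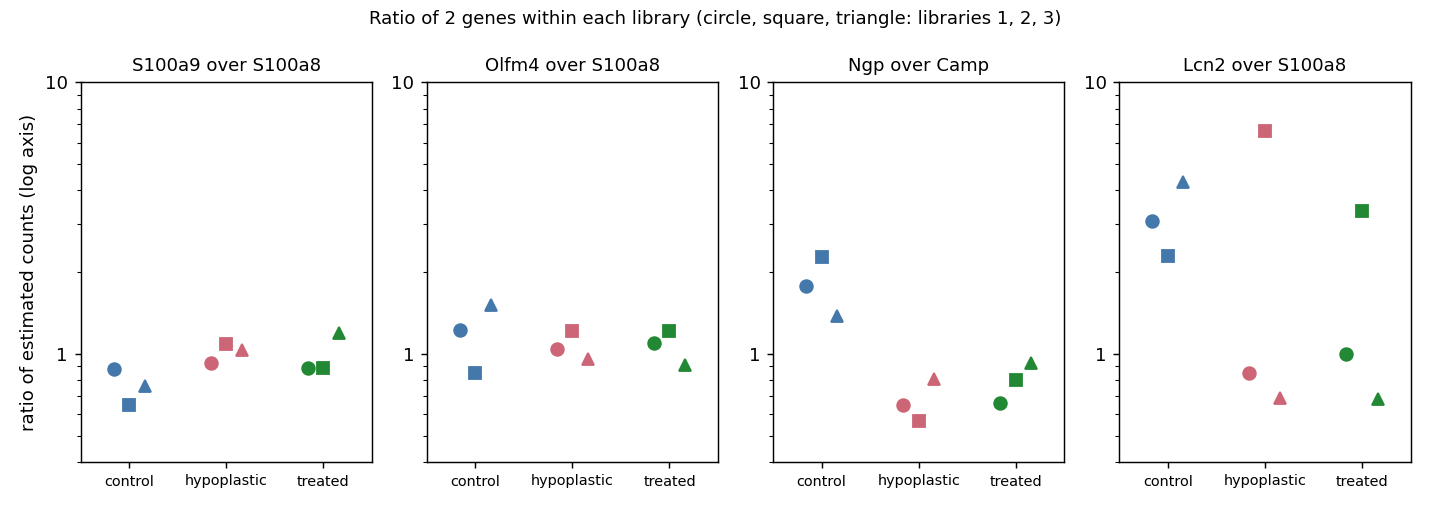
Ratio of the estimated counts of 2 genes within each library, on a log axis. The ratio of S100a9 to S100a8 spread over 1.83-fold, with control library 1 level with treated libraries 1 and 2. That of Olfm4 to S100a8 spread over 1.77-fold. Ngp over Camp was above 1 only in control lungs, and Lcn2 over S100a8 was highest in hypoplastic library 2 (6.62).

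Other granule genes were counted as a list of 24 in the table, of which 21 passed the filter. edgeR called 0 of them in each comparison. Between hypoplastic and control lungs 18 of 21 were higher, with a median log2 difference of 1.09. Over the list 8 separated upward and 2 downward, Alpl and Ctsc (7.67% and 9.05% of all genes). An unadjusted p under 0.05 was found for 11 (12.4% of all genes). Azurophil proteases were scarce and uneven: Elane, neutrophil elastase, was at 0 to 0.0766 CPM in control lungs and at 0.0915, 1.65 and 1.2 CPM in hypoplastic lungs. Among specific granule genes Cd177, a neutrophil surface glycoprotein, was at 1.21 to 1.46 CPM in control and 5.73, 2.74 and 3.95 CPM in hypoplastic lungs. Pglyrp1, which encodes a peptidoglycan-binding protein, was at 0.326 to 0.705 CPM in control and 1.58 to 2.79 CPM in hypoplastic lungs. Elane, Cd177 and Pglyrp1 were picked out after their values were seen. The 4 most highly read genes of the list, Alpl, Lyz2, Cd63 and Ctsc, are read in many lung cells, and their log2 differences were -0.63 (SE 0.191), 0.05 (SE 0.193), 0.45 (SE 0.202) and -0.31 (SE 0.118). In treated against hypoplastic lungs 17 of 21 granule genes were lower, with a median of -0.31 and 3 at an unadjusted p under 0.05 (5.56% of all genes).

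Neutrophil receptors and oxidase genes formed a list of 20, of which 18 were tested and 0 called by edgeR in any comparison. Between hypoplastic and control lungs 17 of 18 were higher, with a median log2 difference of 1.26, 8 separated upward (7.67% of all genes) and 9 had an unadjusted p under 0.05 (12.4% of all genes). Trem1, an activating receptor of myeloid cells, was at 0.553 to 1.04 CPM in control, 2.64 to 4.65 CPM in hypoplastic and 1.23 to 1.74 CPM in treated lungs. Csf3r, the receptor for the neutrophil growth factor G-CSF, overlapped between these groups at 1.39 to 3.97 and 1.83 to 4.25 CPM. Cxcr2, the main chemokine receptor of neutrophils, was at 0.123 to 0.298 CPM in control and 0.362 to 0.595 CPM in hypoplastic lungs, and Cxcr1 was at 0 counts in all libraries. Trem1, Csf3r and Cxcr2 were also picked out with their values seen. Hdc, Itgb2, Ncf1 and Ptafr, the most highly read genes of this list, had log2 differences of -0.37 (SE 0.203), 0.36 (SE 0.295), 1.02 (SE 0.461) and 1.48 (SE 0.539). Between treated and hypoplastic lungs 14 of 18 were lower, with a median of -0.22.

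The transcription factors that drive granulocyte development showed no common direction. Of 8 tested, 5 were higher (Cebpe, Gfi1, Spi1, Cebpd and Irf8) and 3 lower (Cebpa, Cebpb and Runx1) in hypoplastic than in control lungs. edgeR called 0, and 3 had an unadjusted p under 0.05 (12.4% of all genes). Cebpe, the factor needed for specific granule genes, stayed at 0 to 0.320 CPM in the 9 libraries. Its means were 0.0776 CPM in control, 0.187 CPM in hypoplastic and 0.135 CPM in treated lungs, and the groups overlapped. Cebpb was at 181.0 to 221.7 CPM in control and 103.2 to 144.6 CPM in hypoplastic lungs, and Cebpa at 73.7 to 126.7 and 52.2 to 67.0 CPM, with hypoplastic lungs lower without overlap. Cebpd and Runx1, the other highly read factors, had log2 differences of 0.87 (SE 0.416) and -0.09 (SE 0.181). Spi1, which encodes PU.1, was highest in hypoplastic library 2 at 24.4 CPM. Cebpe, Spi1, Gfi1 and Irf8 were named after their values were seen.

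Chemokines and cytokines that recruit or release neutrophils were largely a feature of hypoplastic library 2. Of 11 tested genes 10 were higher in hypoplastic than in control lungs, with a median log2 difference of 2.51. edgeR called 0, with 8 at an unadjusted p under 0.05 (12.4% of all genes). Without overlap, 3 of 11 separated upward (7.67% of all genes). Cxcl1, a ligand of Cxcr2, was at 77.9 CPM in hypoplastic library 2 and at 5.42 to 19.3 CPM in the other 8 libraries. Cxcl2 was at 14.6 CPM in that library and at 0.624 to 1.85 CPM elsewhere, and Ccl3 at 9.29 CPM against 0.285 to 2.39 CPM. Il6 was at 7.05 CPM there and at 0.0613 to 0.711 CPM elsewhere, a gene picked out after the values were seen. Tnf, also picked with its values seen, was less confined to that library. It was at 0.696 to 1.19 CPM in control, 1.65, 2.99 and 2.10 CPM in hypoplastic and 0.856 to 1.63 CPM in treated libraries. Cxcl3 ran the other way, with a log2 difference of -0.50 (SE 0.256). In treated against hypoplastic lungs 11 of 11 were lower, with a median of -1.48 and 1 at an unadjusted p under 0.05 (5.56% of all genes).

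Macrophage markers were highest in the same hypoplastic library as Lcn2, Mmp9 and Mpo. The summed level of the 10 markers in the table was 35.2 to 142 CPM in control, 103, 321 and 176 CPM in hypoplastic and 114, 85.4 and 273 CPM in treated libraries. The highest lungs were hypoplastic library 2 and treated library 3, which were also the highest lungs for Mmp9 and Mpo. All 9 tested markers were higher in hypoplastic than in control lungs, with a median log2 difference of 0.93. Among them 1 separated upward without overlap (7.67% of all genes), and edgeR called 0. Csf1r, C1qc, C1qa and Mrc1, the most highly read, had log2 differences of 0.82, 0.93, 1.15 and 0.56. Marco, a marker of mature alveolar macrophages, was at 1 count or fewer in every library. The part of macrophages in the Lcn2, Mmp9 and Mpo levels was not tested.

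Among other cells, eosinophil, basophil and mast cell markers summed to 54.9 to 86.2 CPM over the 9 libraries, nearly all of it Kit, with Cpa3 and Siglec5 next. Of 7 tested, 3 were higher and 4 lower in hypoplastic than in control lungs, with a median log2 difference of -0.1. Prg2, which encodes eosinophil major basic protein, was one of the higher genes and was highest in hypoplastic library 1. It was at 0.109 to 0.214 CPM in control, 2.63, 1.14 and 1.01 CPM in hypoplastic and 0.529 to 0.921 CPM in treated lungs. The T and B cell markers Cd3e, Cd3g and Ms4a1 were at or near 0. The whole lymphocyte list of 7 genes summed to 7.36 CPM in hypoplastic library 2 and to 1.23 to 4.22 CPM elsewhere. Of its genes 3 were tested, and all 3 were higher in hypoplastic than in control lungs, with a median log2 difference of 0.34. Monocyte markers summed to 909 to 1460 CPM in control, 1280, 2200 and 1490 CPM in hypoplastic and 1090 to 1500 CPM in treated libraries, mostly Fn1 and Vcan, which stromal cells also express. Red cell markers, a measure of blood in the tissue, summed to 3530 to 11000 CPM in control and 3240 to 6510 CPM in hypoplastic lungs, with 0 of 7 higher in hypoplastic lungs. Platelet and megakaryocyte markers had 2 of 4 higher and 2 lower. Liver markers were at or near 0 apart from Apoa1 at 5.65 CPM in control library 2. Their part in the results was not tested.

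Hypoplastic libraries 1 and 2 held more transcript of heart muscle genes, and library 1 more of some basal and airway epithelial genes. Where these transcripts came from was not tested. The heart muscle list summed to 139 and 72.2 CPM in hypoplastic libraries 1 and 2 and to 2.59 to 10.1 CPM in the other 7 libraries. Basal and squamous epithelial markers summed to 119 CPM in hypoplastic library 1 and to 23.7 to 66.2 CPM elsewhere, with Krt14 at 14.9 CPM there and at most 0.931 CPM elsewhere. The secretory airway gene Scgb3a1 was at 30.8 CPM in that library and at most 0.606 CPM in the others. The marker genes of other cells named here and above (Marco, Prg2, Kit, Cpa3, Siglec5, Fn1, Vcan, Apoa1, Krt14, Scgb3a1 and the T and B cell genes) were picked after their values were seen. Without hypoplastic library 1 the log2 differences from control were 2.70 for S100a8, 3.16 for S100a9, 2.58 for Olfm4, 2.47 for Camp, 1.1 for Ngp, 2.0 for Mmp8, 2.67 for Lcn2, 3.38 for Mmp9 and 3.9 for Mpo. Without hypoplastic library 2 they were 3.17 for S100a8, 3.51 for S100a9, 2.97 for Olfm4, 3.13 for Camp and 2.25 for Mmp8, with those of the other members given above. In hypoplastic library 3, where the heart list was at 3.10 CPM and the basal list at 23.7 CPM, S100a8 was at 31.1 CPM and Camp at 10.1 CPM. Among hypoplastic lungs, Ngp and Mmp8 were highest in that library, at 8.13 and 4.69 CPM. Lcn2 and Mpo were lowest there, at 21.3 and 0.634 CPM. Lung epithelial markers were abundant in all lungs and lower in the hypoplastic group, with 8 genes summing to 3260, 4950 and 4020 CPM in control, 2800, 2520 and 2790 CPM in hypoplastic and 3430, 3170 and 2990 CPM in treated libraries. Between hypoplastic and control lungs 7 of 8 had a difference below 0, with a median of -0.60. Of the 8 genes, 4 separated downward (9.05% of all genes) and 6 had an unadjusted p under 0.05 (12.4% of all genes), while edgeR called 0. Their part in the members' levels was not tested.

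Partners of the member proteins were counted last. Of 7 receptors and adaptors of calprotectin, 2 were higher and 5 lower in hypoplastic than in control lungs. The median log2 difference was -0.03, with 1 at an unadjusted p under 0.05 (12.4% of all genes). Bsg, Cd36, Ager and Myd88 had log2 differences of -0.03, -0.45, -0.99 and -0.02, and edgeR called 0. Ager was also counted among the lung epithelial markers above. Of 10 other S100 genes tested, 4 were higher and 6 lower, with a median of -0.16 and values of -0.41 to 0.55 for S100a16, S100a6, S100a10 and S100a11. The 6 inhibitors of metalloproteinases gave 5 higher and 1 lower, with a median of 0.46, and Timp1 was at 68.7 CPM in hypoplastic library 2 and at 20.0 to 37.0 CPM elsewhere. Timp3, Timp2 and Reck, the most highly read, differed by 0.08, -0.10 and 0.10. Of 6 receptors and inducers of Lcn2, 5 were higher with a median of 0.62. Nfkbia and Nfkbiz, which encode proteins of the IkB family, were at 394.3 and 57.7 CPM in hypoplastic library 2. Elsewhere they were at most at 199.7 and 30.3 CPM. The Lcn2 receptor genes Lrp2 and Slc22a17 differed by -0.21 and 0.05. edgeR called 0 of these genes in any comparison.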

How the data were processed

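Total RNA of 9 fetal rat lungs was depleted of ribosomal RNA and sequenced. The authors deposited 1 table of estimated counts, 17465 genes by 9 libraries. The values are not whole for the most part (19.5% of nonzero values are, taken exactly as deposited with no tolerance), with totals of 56922779 to 88243188 and no normalization between libraries. Genome build rn7 and DESeq2 are named in the submitters' processing notes; no source used here names the aligner, the counter or the annotation. Reads of near-identical genes may have been divided. RefSeq (GRCr8) gave symbols for 17314 IDs (99.1%) and the promoter sequences. Sample columns were matched to titles by name.

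Counts were rounded and fitted over all 9 libraries with a term per group by edgeR 4.0.16 (quasi-likelihood test, TMM, filterByExpr, R 4.3.3), leaving 12966 genes. P-values were Benjamini-Hochberg adjusted over all genes, and a gene was called under 0.05. Standard errors are the log2 change divided by the root of F. The test was checked on simulated counts. The members and lists were chosen with earlier results of these data known. Of 196 other listed genes 182 were in the table. The text names all members, any called list gene, up to 4 of the most highly read genes per list, the 8 closest in pattern, and genes said to be picked after their values were seen. Alternatives were RLE factors, DESeq2 1.42.0, limma 3.58.1 voom, other filters, fewer libraries, a replicate block, a sex term and removal of ribosomal rows. Precision is limited by 3 libraries per group.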

Additional observations from a re-analysis of the deposited data

How the results depend on the processing

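No member was called by edgeR in any comparison as planned, nor under RLE factors, either other filter, limma voom, the removal of ribosomal and 7SL rows, a sex term (from Ddx3y) or the replicate block. In hypoplastic against control lungs DESeq2 called 8 members and edgeR on only the 6 libraries compared called 2. In treated against control lungs DESeq2 called 3. With 1 library left out, 0 to 1 members were called in hypoplastic against control and 0 in the other comparisons. Over the whole table, the numbers of genes called were 1 for hypoplastic against control lungs, 0 for treated against hypoplastic lungs and 0 for treated against control lungs. In that order DESeq2 called 198, 15 and 16, the fit on 6 libraries 4, 0 and 0, and the replicate block 2, 0 and 0. Leaving out 1 library gave 0 to 45, 0 to 44 and 0 to 1, with the 45 and 44 both reached without hypoplastic library 3. The cause was not tested. Nothing in the labels ties lungs of the same replicate number together, and same-numbered libraries deviated together with correlations from -0.368 to 0.312, so no pairing was assumed. The direction of every member above the filter held in all of these fits except for Mpo in treated against hypoplastic lungs. There, leaving out 1 library gave -1.83 to 0.652. Depth limits Ltf, at 0 to 5 counts, and Mpo in control lungs, at 8 to 21.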

Other observations

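A second pattern was drawn from the mean of Ltf, Camp, Ngp and Mpo, over the 9 libraries and 11389 genes, with a median root mean square difference of 0.634. Ltf, near 0 in all lungs, flattens this mean. The 8 closest genes were Slc7a11 (0.173), Stfa2l1 (0.232), Pglyrp1 (0.273), Stfa3 (0.284), Trim15 (0.293), Cd177 (0.304), Mmp8 (0.314) and Tf (0.32). Slc7a11, which encodes the cystine transporter subunit xCT, was at 0.808, 1.31 and 0.681 CPM in control, 2.48, 2.01 and 2.82 CPM in hypoplastic and 1.62, 1.23 and 2.69 CPM in treated libraries. Stfa2l1, a stefin A gene, was at 0.434 to 0.781 CPM in control, 1.97 to 2.27 CPM in hypoplastic and 0.493 to 2.67 CPM in treated libraries. Stfa3, Mmp8 and Tf were among the 8 closest to both patterns.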
